A study of Mus musculus with 32 samples.

Results

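The matrix metalloproteinase and TIMP genes *Timp1*, *Timp2*, *Timp3*, *Mmp2*, *Mmp3*, *Mmp9*, *Mmp14* and *Mmp19* were followed in mouse muscle lacking *Mtm1*. These 8 genes were taken by name from the 54838 genes of the expression table, in a choice made with earlier results of these data known, and 3 of them are TIMPs and 5 are metalloproteinases. Of all 8, *Timp1* and *Mmp19* were higher in KO than in WT muscle at P21 and at P35, *Timp1* by 8.08-fold and 8.60-fold and *Mmp19* by 1.90-fold and 1.61-fold (n=4 per group). No member passed the same thresholds at P1 or P14, except that *Timp1* passed at P14 in a model that paired the libraries by replicate number (adjusted *P*=0.0036). *Timp1* also passed at P14 in an alternative test without pairing, DESeq2.

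RNA of skeletal muscle, the tibialis anterior (TA) by the methods of the study, was sequenced at postnatal days 1, 14, 21 and 35 (P1 to P35). The 32 libraries fell into 8 groups, WT and *Mtm1* KO at each of the 4 ages, with 4 libraries per group, all on the C57BL6/J background. *Mtm1* is an X-linked gene for a phosphoinositide phosphatase, and its loss models X-linked myotubular myopathy. The KO allele carries a targeted deletion in exon 4, and the line was made on a 129S2PAS background before it was moved to C57BL6J. The labels name no treatment and do not say whether libraries of 1 group share a litter, so *P*-values measure the spread between these libraries.

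Matrix metalloproteinases are zinc-dependent enzymes that cut proteins of the extracellular matrix and the cell surface. They are made as inactive precursors, are activated by cleavage and are blocked by the tissue inhibitors of metalloproteinases (TIMPs). In skeletal muscle they are known for their part in the growth and repair of fibers and in fibrosis, and *Timp1* is an established gene of injured and fibrotic tissue.

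By the GENCODE M21 annotation of GRCm38, *Timp1* (ENSMUSG00000001131) lay at chrX:20870166-20874735, *Timp2* (ENSMUSG00000017466) at chr11:118301069-118355740 and *Timp3* (ENSMUSG00000020044) at chr10:86300372-86349506. *Mmp2* (ENSMUSG00000031740) lay at chr8:92827291-92853420 and *Mmp9* (ENSMUSG00000017737) at chr2:164940780-164955850. *Mmp3* (ENSMUSG00000043613) lay at chr9:7445822-7455975, *Mmp14* (ENSMUSG00000000957) at chr14:54431612-54445364 and *Mmp19* (ENSMUSG00000025355) at chr10:128790910-128800824. All 8 are protein-coding genes, and *Timp2* alone is on the minus strand. Exons of *Mmp19* shared 789 bases, 22.3% of its exon length, with *Tmem198b* on the opposite strand, and exons of *Timp3* shared 1733 bases with *Syn3*, also on the opposite strand. *Timp1* lies inside *Syn1* and shared 0 exon bases with it. The library kit keeps the strand, but whether the counting used it is not given in the sources used here.

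*Timp1* and *Mmp3* were both higher in every KO than in every WT library at P35, as were *Mmp2* and *Mmp19*. Because *Timp1* is a known target of the transcription factor AP-1, the 250 bases before the start sites of *Timp1* and *Mmp3* are shown. They come from RefSeq promoters of GRCm38.p6, read 5′ to 3′, with the AP-1 motif TGAGTCA in capitals. Both genes are on the plus strand.
*Timp1*, chrX:20869916-20870165: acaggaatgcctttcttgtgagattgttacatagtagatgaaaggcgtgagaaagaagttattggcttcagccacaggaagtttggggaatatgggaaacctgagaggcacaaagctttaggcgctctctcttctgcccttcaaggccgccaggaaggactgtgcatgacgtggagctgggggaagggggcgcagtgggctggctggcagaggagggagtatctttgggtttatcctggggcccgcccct
*Mmp3*, chr9:7445572-7445821: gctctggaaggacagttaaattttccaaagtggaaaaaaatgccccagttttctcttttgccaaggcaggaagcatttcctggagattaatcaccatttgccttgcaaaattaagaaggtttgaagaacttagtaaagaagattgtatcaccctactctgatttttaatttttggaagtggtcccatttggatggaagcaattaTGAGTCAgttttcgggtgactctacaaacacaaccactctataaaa
The letters TGAGTCA, or TGACTCA for the other strand, occurred once in *Mmp3*, with the first base at position -46 from the start, and did not occur in the window of *Timp1*. Promoters of *Timp2*, *Timp3* and *Mmp14* did not hold them either. *Mmp2*, *Mmp9* and *Mmp19* were not searched or shown, because no promoter sequence of these was at hand. Only these exact letters were counted, so the search cannot tell whether *Timp1* holds an AP-1 site in a variant form. The 50 bases after the start of *Timp1*, searched but not shown, hold the close variant TGAGTAA. Of 32851 RefSeq promoters of 300 bases, 250 before and 50 after the start, 5.20% held the motif.

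Library totals ran from 49321035 to 85631408 counts. The targeted gene was lower in KO than in WT at each age, at 5.44 to 6.22 CPM (counts scaled to a common library size) in WT and 2.40 to 3.94 in KO at P1, and at 19.1 to 24.8 in WT and 2.57 to 4.46 in KO from P14 on, and it was called at every age but P1 (log2FC -0.98, adjusted *P*=0.067). Myofiber markers were the most abundant of the marker lists in all groups, at a summed 67588 to 187621 CPM from P14 on and 16940.5 to 33226 at P1. All 8 keratinocyte markers were above 0 in the P1 libraries, with sums of 1860.3 to 6869 CPM against at most 34.4 later, and the 8 chondrocyte and bone markers summed to 539.7 to 961 CPM at P1. At P35 KO replicate 2 stood apart, with a sum of 215 CPM for the chondrocyte and bone markers against 4.95 to 13.9 in the other 7 libraries. Levels are CPM scaled by TMM over all 32 libraries, and log2 fold changes (log2FC) come from edgeR's quasi-likelihood test within each comparison. A gene was called where its adjusted *P*-value was under 0.01 and it differed by more than 1.5-fold in either direction.

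*Timp1*, a secreted inhibitor of most metalloproteinases, had the smallest adjusted *P*-value of the members from P14 on. At P1 the 4 WT libraries held 17.5, 10.5, 9.06 and 16.6 CPM against 15.1, 15.5, 13.2 and 12.6 CPM in KO, and the genotypes overlapped (log2FC 0.09, SE 0.21, adjusted *P*=0.88). At P14 the WT libraries were at 1.72, 1.79, 1.84 and 1.13 CPM, with KO at 2.81, 2.98, 4.46 and 2.78 CPM. Every KO library was thus above every WT library at P14, although the gene was not called (log2FC 1.008, SE 0.21, adjusted *P*=0.18). The same-numbered libraries of P14 deviated together, and with these numbers as a block in the model *Timp1* passed at P14 (log2FC 0.99, adjusted *P*=0.0036), as it did in DESeq2 (adjusted *P*=0.0016). The block also moved the calls of all genes at P14 from 4 higher and 1 lower to 67 and 31.

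At P21 *Timp1* reached 10.1, 15.1, 10.99 and 8.65 CPM in the KO libraries against 0.680, 1.59, 1.17 and 2.31 CPM in WT. The groups did not overlap, and the difference passed the test (log2FC 3.01, SE 0.32, adjusted *P*=0.00058). At P35 the KO libraries were at 12.7, 25.3, 30.3 and 21.6 CPM and the WT libraries at 2.11, 3.29, 1.49 and 3.75 CPM, again without overlap (log2FC 3.10, SE 0.33, adjusted *P*=0.00019). The call held in all 8 fits that left out 1 library at either age. In bulk tissue, a change in the number of cells of a type and a change in RNA per cell cannot be told apart, here and for the genes below.

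**Figure D1:**
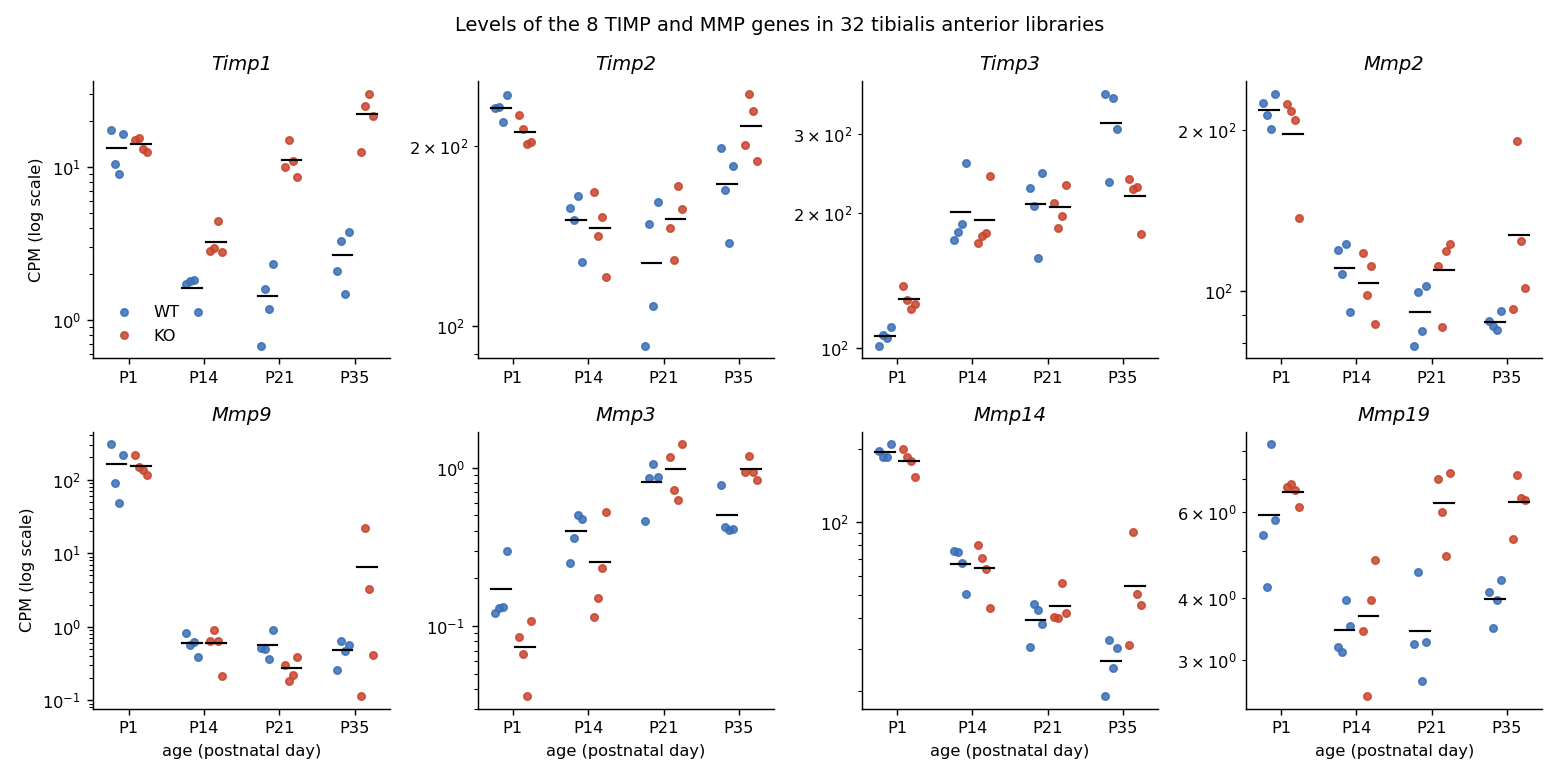
Level of each member in CPM (log scale, with a different range in each panel) by age, with 1 point per library, WT in blue, KO in red, and the mean of each group of 4 as a black line. *Timp1* separates by genotype at P14, where edgeR without pairing did not call it, and at P21 and P35. *Mmp9* falls from at least 48.8 CPM in the P1 libraries to at most 0.902 CPM at P14.

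*Timp2*, which both inhibits metalloproteinases and takes part in the activation of pro-MMP2 by MMP14, was among the most abundant members. From P1 to P35 WT means were 232, 150.5, 128 and 173 CPM, and KO means 211, 146, 151 and 216 CPM. At P35 the KO libraries were at 201, 245, 229.7 and 189 CPM and the WT libraries at 199, 169, 138 and 186 CPM, with overlap between the genotypes. The difference did not pass (log2FC 0.35, SE 0.13, adjusted *P*=0.059), nor did it at P21 (0.30, SE 0.17, adjusted *P*=0.24).

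*Timp3*, the TIMP that binds to the extracellular matrix and also inhibits ADAM proteases, was the only member with a negative log2FC at P35. At P1 the KO libraries were at 137, 128, 122 and 125 CPM and the WT libraries at 101, 107, 105 and 111 CPM. All KO libraries were above all WT libraries, with a log2FC of 0.30 (SE 0.06) that did not pass in edgeR (adjusted *P*=0.11) and had an adjusted *P*-value of 0.00016 in DESeq2, under the limit on fold change. At P21 the genotypes overlapped (log2FC 0.03, SE 0.13, adjusted *P*=0.89). At P35 the WT libraries held 369, 235, 360.3 and 308 CPM against 239, 226, 228 and 179.7 CPM in KO, which overlapped at 1 WT library, and the log2FC was -0.52 (SE 0.16, adjusted *P*=0.027). Without WT replicate 2 at P35, *Timp3* was called (log2FC -0.65, adjusted *P*=0.0057), and under scaling by library totals its log2FC was -0.11 (adjusted *P*=0.58).

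*Timp4*, the remaining mammalian TIMP and not a member of the set, differed in opposite directions at the first and last ages. At P1 the KO libraries held 7.58, 8.79, 10.2 and 8.33 CPM against 3.30, 2.97, 3.28 and 3.11 CPM in WT. The gene was called at P1 (log2FC 1.49, SE 0.11, adjusted *P*=0.0017), but not without WT replicate 1, 2 or 4 (adjusted *P* 0.013 to 0.020). At P35 the KO libraries were at 20.5, 17.1, 13.5 and 15.3 CPM against 57.8, 55.4, 92.0 and 46.8 CPM in WT, and *Timp4* was called lower (log2FC -1.89, SE 0.22, adjusted *P*=0.00025). At P21 the genotypes overlapped (log2FC -1.11, SE 0.43, adjusted *P*=0.093).

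The gelatinases *Mmp2* and *Mmp9* cut denatured collagen and basement membrane collagen. *Mmp2*, which is made mainly by fibroblasts and other stromal cells, was at 87.7, 86.0, 84.6 and 91.7 CPM in WT and at 92.7, 190.4, 124 and 101 CPM in KO at P35. Every KO library was above every WT library, and replicate 2 was the highest. The log2FC of 0.57 (SE 0.20) did not pass (adjusted *P*=0.048), and it was 0.29 without KO replicate 2. At P21 the genotypes overlapped, with means of 91.2 CPM in WT and 109.6 CPM in KO (log2FC 0.32, SE 0.12, adjusted *P*=0.093).

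*Mmp9*, which is abundant in osteoclasts and neutrophils, had the widest range of levels among the members, from 0.114 to 302 CPM. At P1 the WT libraries held 302, 89.8, 48.8 and 213 CPM, with KO at 216, 149, 134 and 116 CPM (log2FC -0.07, SE 0.49, adjusted *P*=0.96). All 16 libraries of P14 and P21 were under 1 CPM. At P21 the means were 0.569 ± 0.233 CPM in WT and 0.275 ± 0.0928 CPM in KO (SD, n=4), which was not called (log2FC -0.9996, SE 0.35, adjusted *P*=0.069). At P35 the KO libraries were at 0.114, 22.2, 3.29 and 0.412 CPM and the WT libraries at 0.260, 0.634, 0.473 and 0.572 CPM. Only KO replicates 2 and 3 were above WT, and replicates 1 and 4 lay within or below the WT range. The log2FC was 3.79 with an SE of 1.34 (adjusted *P*=0.047), 1.42 without KO replicate 2 (adjusted *P*=0.24) and -0.87 without both replicates 2 and 3 (adjusted *P*=0.28).

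*Mmp3*, or stromelysin 1, cuts several matrix proteins and activates other pro-MMPs. It was the lowest member at P1, and had no more than 82 counts in any library. At P1 the WT libraries held 11, 11, 13 and 31 counts and the KO libraries 11, 7, 3 and 12 counts, which at 0.121 to 0.298 CPM in WT and 0.0360 to 0.108 CPM in KO did not overlap (log2FC -1.14, SE 0.41, adjusted *P*=0.36). At P21 it was at 0.462 to 1.05 CPM in WT and 0.622 to 1.41 CPM in KO (log2FC 0.32, SE 0.32, adjusted *P*=0.52). At P35 the KO libraries were at 0.943, 1.19, 0.945 and 0.842 CPM and the WT libraries at 0.781, 0.423, 0.402 and 0.412 CPM. Here every KO library was higher (log2FC 0.98, SE 0.27, adjusted *P*=0.018), and without WT replicate 1, the highest of its group, the gene was called (log2FC 1.28, adjusted *P*=0.0035).

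*Mmp14*, or MT1-MMP, is anchored in the cell membrane and activates pro-MMP2. At P35 its KO libraries were at 31.1, 91.3, 50.3 and 45.4 CPM and its WT libraries at 19.1, 32.6, 24.9 and 30.1 CPM. The ranges overlapped between the lowest KO and the highest WT library (log2FC 1.07, SE 0.30, adjusted *P*=0.0185). The log2FC was 0.68 without KO replicate 2 and 0.54 without KO replicates 2 and 3 (adjusted *P*=0.10). *Mmp14* was called at P35 by DESeq2 (adjusted *P*=0.0011), and by edgeR without KO replicate 1 (log2FC 1.25, adjusted *P*=0.0066). At P21 its means were 39.3 CPM in WT and 44.8 CPM in KO (log2FC 0.24, SE 0.15, adjusted *P*=0.27).

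*Mmp19*, a secreted metalloproteinase that cuts basement membrane proteins, was low in all groups, at 2.53 to 8.25 CPM. At P21 the KO libraries were at 7.01, 6.005, 4.88 and 7.20 CPM and the WT libraries at 3.23, 4.54, 2.71 and 3.26 CPM. All KO libraries were above all WT libraries, and the gene was called (log2FC 0.92, SE 0.18, adjusted *P*=0.0070). The call was lost in 6 of the 8 fits that left out 1 library (adjusted *P* up to 0.025), and kept only without WT replicate 2 or KO replicate 3. At P35 the KO libraries held 5.28, 7.16, 6.40 and 6.34 CPM against 4.12, 3.48, 3.97 and 4.37 CPM in WT, again without overlap (log2FC 0.69, SE 0.13, adjusted *P*=0.0027). That call held in all 8 such fits, and was lost without KO replicates 2 and 3 together (log2FC 0.56, adjusted *P*=0.034). *Tmem198b*, whose exons overlap those of *Mmp19*, was not called at P21 (log2FC 0.07, adjusted *P*=0.69) or P35 (0.16, adjusted *P*=0.30).

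**Figure D2:**
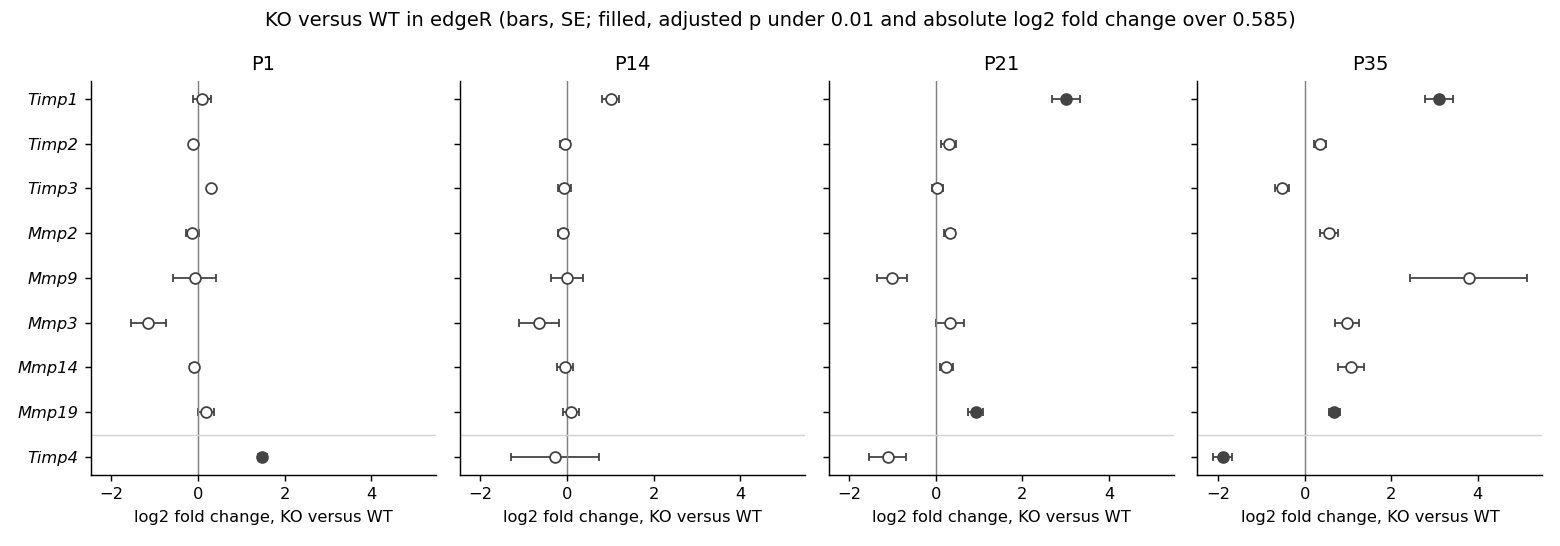
Log2 fold change of KO versus WT at each age for the 8 members and, under the grey line, *Timp4*, with SE as bars. Filled points were called, namely *Timp1* and *Mmp19* at P21 and P35 and *Timp4* at P1 and P35, and the SE of *Mmp9* at P35, 1.34, is the widest among the members.

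In edgeR without pairing, calls of KO against WT among the members were made at P21 and P35 only. At P1 and P14 0 of 8 members were called, where 0.0442% of 18100 genes and 0.0318% of 15728 genes were. Under an unadjusted *P* of 0.05, 2 members passed at P1 (*Timp3* and *Mmp3*) and 1 at P14 (*Timp1*), against 10.9% and 6.82% of all genes. DESeq2 called 0 members at P1, where it gave *Mmp3* no adjusted *P*-value, and *Timp1* at P14. Over all genes DESeq2 called 74 higher and 19 lower at P1, and 39 and 14 at P14. At P21 2 of 8 members were called higher in KO, against 3.18% of 15179 genes, and 0 lower. At P35 2 of 8 were called higher, against 8.49% of 15595 genes, and 0 lower. With the limit set at an adjusted *P* of 0.05, 7 of 8 members passed at P35, all but *Timp2*, and so did 41.4% of all genes. Groups without overlap were seen at P1 for 2 members (8.74% of genes tested), at P14 for 1 (4.78%), at P21 for 2 (25.4%) and at P35 for 4 (39.0%). The median log2FC of the members was 0.31 at P21 and 0.83 at P35, and that of all genes 0.01 and 0.04. Scaling by library totals moved the median of all genes to 0.20 at P21 and 0.44 at P35, and turned the calls of all genes from 482 higher and 227 lower to 1052 and 105 at P21, and from 1324 higher and 1172 lower to 4350 and 326 at P35. Under that scaling *Timp1* remained called at P21 and P35, and at P35 *Timp2*, *Mmp2*, *Mmp3*, *Mmp14* and *Mmp19* were called too.

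The P35 libraries that were highest in *Mmp9*, *Mmp14* and *Mmp2* were also highest in osteoclast markers and in the bone gene *Ibsp*. Of the 3 osteoclast markers tested at P35, the genes *Acp5* and *Ctsk*, for a phosphatase and a collagen-cutting protease of bone resorption, were called higher in KO (log2FC 3.20, SE 0.71, adjusted *P*=0.0062, and 1.12, SE 0.26, adjusted *P*=0.0072). The 6 osteoclast markers summed to 19.4 to 24.0 CPM in WT and to 33.3, 98.8, 59.9 and 34.9 CPM in KO at P35. Most of that sum was *Ctsk*, at a mean of 20.5 CPM in WT and 43.5 CPM in KO. All 6 were detected in both groups, but only 3 passed the filter on low counts. *Ibsp*, which encodes bone sialoprotein, had 0 to 5 counts in the WT libraries, and 3, 2894, 502 and 0 counts in the KO libraries. KO replicates 2 and 3, which had the most *Ibsp* and the highest osteoclast sums, were the only libraries with *Mmp9* over 1 CPM at this age. Of the 8 chondrocyte and bone markers, which include *Ibsp*, 3 were tested at P35 and 0 were called. Their sums set only KO replicate 2 apart, at 215 CPM, with replicate 3 at 13.9 CPM and close to replicate 1. At P21 KO replicate 3 had a sum of 33.8 CPM, with *Mmp9* at 0.221 CPM. Over the 24 libraries of P14 to P35, Pearson's *r* of *Mmp9* with this sum, both as log2, was 0.72. Within P35 the 8 neutrophil markers were highest in KO replicates 2 and 3, at a summed 1.47 and 1.37 CPM against 0.179 to 0.822 CPM in the other 6. At P21 the sums of these 8 reached 2.81 CPM in WT and 1.69 CPM in KO, with *Mmp9* under 1 CPM in every library. Of these markers, 1 of 8 passed the filter on low counts at P35, and *Mpo* and *Elane* had no more than 3 counts in any library.

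Of the 8 macrophage markers, 3 were called higher in KO at P21 and 4 at P35, and 0 lower. Their sums were 69.8 to 89.6 CPM in WT and 82.8 to 122 CPM in KO at P35. Over all genes, 482 of 15179 were called higher and 227 lower at P21, and 1324 and 1172 of 15595 at P35. None of the 8 fibroblast markers was called at either age, and their sums were 868 to 964 CPM in WT and 975 to 1204 CPM in KO at P35. The 7 myofiber markers summed to 111739 to 159034 CPM in WT and 67588 to 97652 CPM in KO at P35, with 1 of 7 (*Acta1*) called lower. Keratinocyte markers summed to 6.87 to 9.94 CPM in WT and 28.0 to 34.4 CPM in KO at P21, and to 9.10 to 10.3 CPM and 24.2 to 29.9 CPM at P35. Most of that sum in KO was *Trp63*, called at both ages (log2FC 2.27 and 2.30), and *Krt5*, *Krt14*, *Krt1*, *Krt15* and *Dsg1a* had no more than 3 counts in any library of P21. The endothelial markers *Cdh5* and *Tek*, 2 of 6, were called lower at P35, with sums of 349 to 627 CPM in WT and 308 to 374 CPM in KO. Of 5 satellite cell markers, *Pax7* and *Chrdl2* were called lower at P21 and P35, and *Sdc4* higher at P35. The part of any of these cells in the differences of *Timp1*, *Timp3*, *Mmp2*, *Mmp14* and *Mmp19* was not tested. Without KO replicates 2 and 3, a choice made after seeing the data, *Timp1* remained called at P35 in edgeR (log2FC 2.70, adjusted *P*=0.0028). In that fit the log2FC of *Mmp2* (0.16) and *Mmp3* (0.84) had adjusted *P*-values of 0.19 and 0.11. With all libraries the log2FC of *Mmp3* was 0.98. With fewer libraries, calls of all genes also went from 1324 higher and 1172 lower to 656 and 668.

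**Figure D3:**
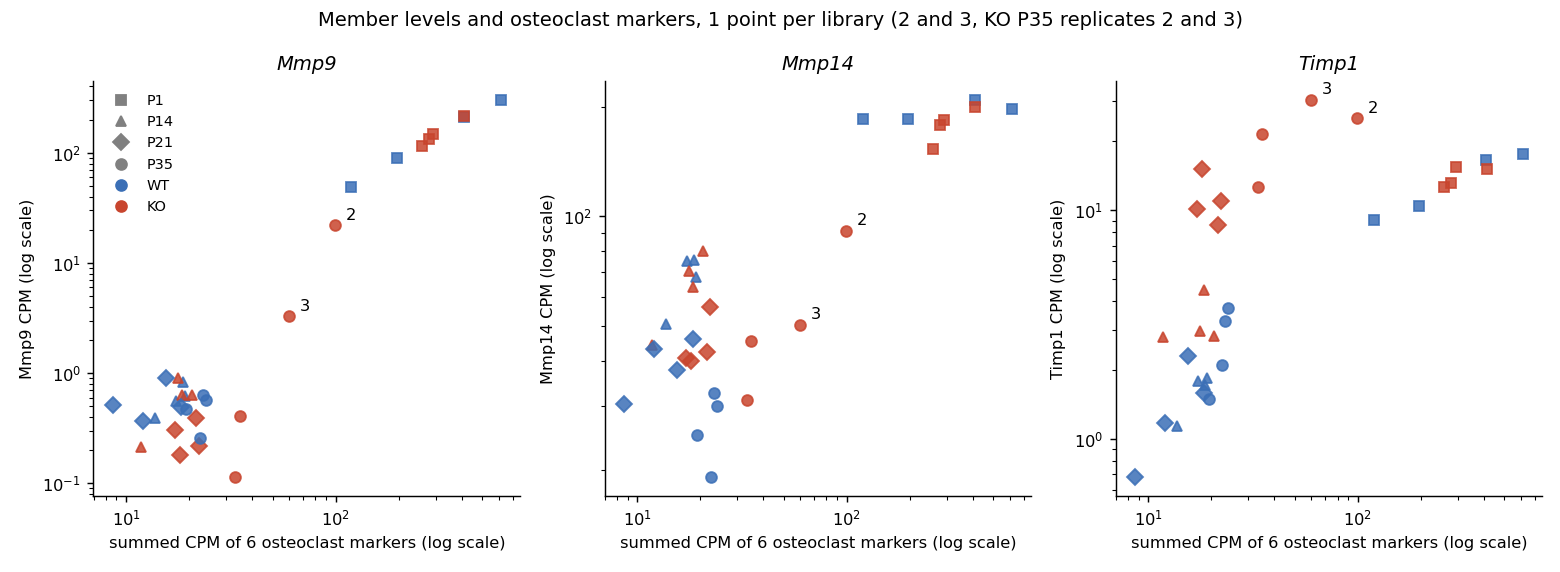
CPM of *Mmp9*, *Mmp14* and *Timp1* against the summed CPM of 6 osteoclast markers (log scales), with 1 point per library, genotype by color and age by symbol. KO P35 replicates 2 and 3, marked by their numbers, lie between the P1 libraries and the rest for *Mmp9*. *Timp1* at P21 is higher in all KO libraries, at marker sums of 8.65 to 18.4 CPM in WT and 17.1 to 22.2 CPM in KO. Over the 24 libraries of P14 to P35, Pearson's *r* with this sum, both as log2, was 0.66 for *Mmp9*, 0.23 for *Mmp14* and 0.77 for *Timp1*.

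The course with age was followed within each genotype. From P1 to P14, 1 member was called higher and 5 lower in WT, where 24.7% and 30.4% of genes were, and likewise in KO, where 23.5% and 29.1% were. Age and any handling, dissection or sequencing batch cannot be told apart in these comparisons. Keratinocyte, bone, osteoclast, neutrophil and macrophage markers fell over the same interval. All 8 neutrophil markers were called lower in both genotypes. Their sums were 28.3 to 156 CPM in WT and 18.5 to 48.9 CPM in KO at P1, and at most 0.660 CPM at P14. *Mmp9* had the widest change of the members, with a log2FC of -8.02 (SE 0.70, adjusted *P*=4.2e-06) in WT and -7.95 (SE 0.36, adjusted *P*=3.7e-07) in KO. *Timp1* changed by -2.998 (SE 0.25) in WT and -2.09 (SE 0.16) in KO, and *Mmp14* by -1.48 (SE 0.12) and -1.44 (SE 0.17). *Mmp2* fell by 0.94 on the log2 scale in WT and by 0.90 in KO, and *Mmp19* fell by 0.74 and 0.82. The call of *Mmp19* in WT was lost in 6 of 8 fits that left out 1 library, in 5 of them with an adjusted *P* of 0.010 to 0.021 and without WT replicate 3 of P1 with a log2FC of -0.53, and kept only without WT replicate 2 of P1 or 3 of P14. *Timp2* changed by -0.58 in WT and -0.51 in KO, under the limit on fold change, with adjusted *P*-values of 0.00010 and 0.0018, and was called in WT without replicate 3 of P1 or without replicate 1 or 3 of P14.

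*Timp3* was the member called higher at P14 than at P1, by a log2FC of 0.97 (SE 0.12) in WT and 0.61 (SE 0.12) in KO. Under library totals, which moved the median of all genes by -0.85 and -0.81, these became 0.18 in WT and -0.12 in KO, so that the direction in KO turned, and the calls of all genes in WT went from 4304 higher and 5297 lower to 1598 and 10025, and in KO from 4168 and 5160 to 1630 and 9616. Without KO replicate 4 at P14, the highest of its group at 241 CPM, the value in KO was 0.50, below the limit. *Mmp3* changed by 1.23 in WT (SE 0.36, adjusted *P*=0.010), just outside the threshold, was called without WT replicate 4 of P1 or 1 of P14, and was not tested in KO because of its low counts. *Timp4* rose in WT by 3.03 (SE 0.74, adjusted *P*=0.0039), and by 1.68 without WT replicate 4 at P14, which held 70.8 CPM against 6.46 to 15.9 CPM in the other 3. Its call was lost without any of the 4 WT replicates of P1 (adjusted *P* of 0.010 to 0.013).

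Between P14 and P21, *Timp1* was called higher in KO (log2FC 1.79, SE 0.21, adjusted *P*=0.00094), and it was the only member called, with 1 of 8 higher and 0 lower against 3.30% and 3.74% of genes. *Mmp3* and *Mmp19* were also higher in every KO library of P21 than of P14, with log2FC values of 1.98 (SE 0.46, adjusted *P*=0.014) and 0.78 (SE 0.20, adjusted *P*=0.020). The KO libraries of these ages did not overlap for 3 of 8 members and for 4495 of 15585 genes. Without KO replicate 4 of P14, *Mmp3* (log2FC 2.57, adjusted *P*=0.0018) and *Mmp19* (0.94, adjusted *P*=0.0056) were called in this interval. In WT *Mmp14* was called lower (log2FC -0.80, SE 0.15, adjusted *P*=0.0066) and 0 members higher, against 2.60% and 2.93% of genes. This call was lost in 7 of 8 fits that left out 1 library, with adjusted *P* up to 0.024, and kept only without WT replicate 4 of P14. Library totals turned the calls of all genes in WT from 450 higher and 398 lower to 246 and 569. *Mmp3* in WT changed by 1.03 (SE 0.31, adjusted *P*=0.040).

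No member was called from P21 to P35 by edgeR, in WT against 1.40% of genes higher and 1.05% lower, or in KO against 2.07% and 1.94%. Under an unadjusted *P* of 0.05, 4 members passed in WT and 3 in KO, where 34.4% and 38.7% of all genes did. DESeq2 called 1 and 2 members, and over all genes 432 higher and 413 lower in WT and 633 and 565 in KO. Under library totals the calls of all genes went from 210 higher and 158 lower to 124 and 171 in WT, and from 326 and 305 to 763 and 152 in KO. *Timp1* in KO went from a mean of 11.2 ± 2.75 to 22.5 ± 7.45 CPM (SD, n=4), with a log2FC of 0.99 (SE 0.25, adjusted *P*=0.022), and was called without KO replicate 1 of P35 (1.18, adjusted *P*=0.0086). *Timp2* in KO changed by 0.51 (SE 0.11, adjusted *P*=0.013), with no overlap between the ages, which also held for 4212 of 15734 genes. In WT, *Timp3* changed by 0.61 (SE 0.17, adjusted *P*=0.040) and *Mmp14* by -0.57 (SE 0.17, adjusted *P*=0.051). *Mmp9* in KO changed by 4.57 (SE 1.42, adjusted *P*=0.044), by 2.21 without KO replicate 2 of P35, and by -0.09 without replicates 2 and 3.

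Whether the KO effect changed with age was tested in a single model of the 32 libraries, at an adjusted *P* under 0.01. Between neighboring ages no member passed in edgeR, where 0.0161% of 18583 genes passed for P14 against P1, 0.425% for P21 against P14 and 0.463% for P35 against P21. Unadjusted *P*-values were under 0.05 for 1, 2 and 3 members, against 6.46%, 12.9% and 17.4% of all genes. DESeq2 called 0, 1 and 1 members, and over all genes 6 higher and 3 lower, 154 and 68, and 113 and 212. Library totals turned the calls of all genes for P35 against P21 from 28 higher and 58 lower to 56 and 12. *Timp1* came closest at P21 against P14, with a difference of 1.99 on the log2 scale (SE 0.44, adjusted *P*=0.016). Without WT replicate 4 of P21 this passed (2.33, adjusted *P*=0.0067). *Mmp9* had the largest difference for P35 against P21, at 4.78 (SE 1.64, adjusted *P*=0.12), and 2.44 without KO replicate 2.

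Between the first and the last age, a contrast added after seeing the data, the KO effect differed for 4 members. It was higher at P35 for *Timp1* by 2.997 (SE 0.41, adjusted *P*=5.2e-06), *Mmp3* by 2.11 (SE 0.58, adjusted *P*=0.0076) and *Mmp14* by 1.15 (SE 0.31, adjusted *P*=0.0066), and lower for *Timp3* (-0.83, SE 0.21, adjusted *P*=0.0039). Among all genes 8.18% passed in the first direction and 7.71% in the second. The call of *Timp1* held in all 16 fits that left out 1 library. That of *Timp3* held in 13, all but those without WT replicate 1 or 3 or KO replicate 4 of P35. That of *Mmp14* held in 7, without WT replicate 2 or 3 or KO replicate 1 of P1, or without WT replicate 2 or 4 or KO replicate 1 or 4 of P35. That of *Mmp3* held in 6, without WT replicate 1, 2 or 3 or KO replicate 4 of P1, or without WT replicate 1 or KO replicate 4 of P35. Without KO replicate 2 of P35 the value of *Mmp14* was 0.77 (adjusted *P*=0.024) and that of *Mmp9* 1.501 (adjusted *P*=0.22). Under library totals *Timp3* was no longer called, and *Timp2*, *Mmp2*, *Mmp9* and *Mmp19* were, while the calls of all genes went from 1521 higher and 1432 lower to 4554 and 382. The values of *Mmp2* (0.69, SE 0.23, adjusted *P*=0.029), *Timp2* (0.45, SE 0.19, adjusted *P*=0.080), *Mmp9* (3.85, SE 1.14, adjusted *P*=0.013) and *Mmp19* (0.49, SE 0.25, adjusted *P*=0.15) did not pass.

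Levels of different genes were compared per kilobase of exon. At P35 in WT, *Timp2* (44.4 ± 6.75 CPM per kb, SD, n=4) and *Timp3* (39.1 ± 7.57) came first and overlapped, followed by *Mmp2* (26.0 ± 0.915), *Mmp14* (4.47 ± 1.00), *Timp1* (2.99 ± 1.17), *Mmp19* (1.13 ± 0.106), *Mmp3* (0.280 ± 0.103) and *Mmp9* (0.137 ± 0.0462). Only *Mmp14* and *Timp1* overlapped among the later neighbors. In KO at P35 the order was *Timp2* (55.5 ± 6.58), *Mmp2* (37.7 ± 13.1), *Timp3* (26.8 ± 3.22), *Timp1* (25.3 ± 8.39), *Mmp14* (9.15 ± 4.33), *Mmp9* (1.84 ± 2.98), *Mmp19* (1.78 ± 0.218) and *Mmp3* (0.544 ± 0.0809). All neighbors in this order overlapped except *Mmp19* and *Mmp3*. The place of *Mmp9* rested on KO replicate 2, at 6.26 CPM per kb against 0.0322, 0.931 and 0.116 in replicates 1, 3 and 4. *Timp1* lay 5th in WT and 4th in KO, where its libraries overlapped with those of *Timp3*. Of the summed level of the 3 TIMPs, *Timp1* made up 2.06% to 4.88% in WT and 14.98% to 28.2% in KO at P35. The sum of the 3 TIMPs was 0.490 to 0.744 times that of the 5 metalloproteinases in WT at P1, 2.35 to 3.20 times in WT at P35 and 1.48 to 2.74 times in KO at P35, where replicate 2 gave the lowest value and the other 3 were at 2.37 to 2.74, within the WT range. These sums leave out *Timp4*, which at P35 was at 10.7 ± 3.38 CPM per kb in WT and 2.82 ± 0.505 in KO. A ratio that counts *Timp4* was not computed.

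**Figure D4:**
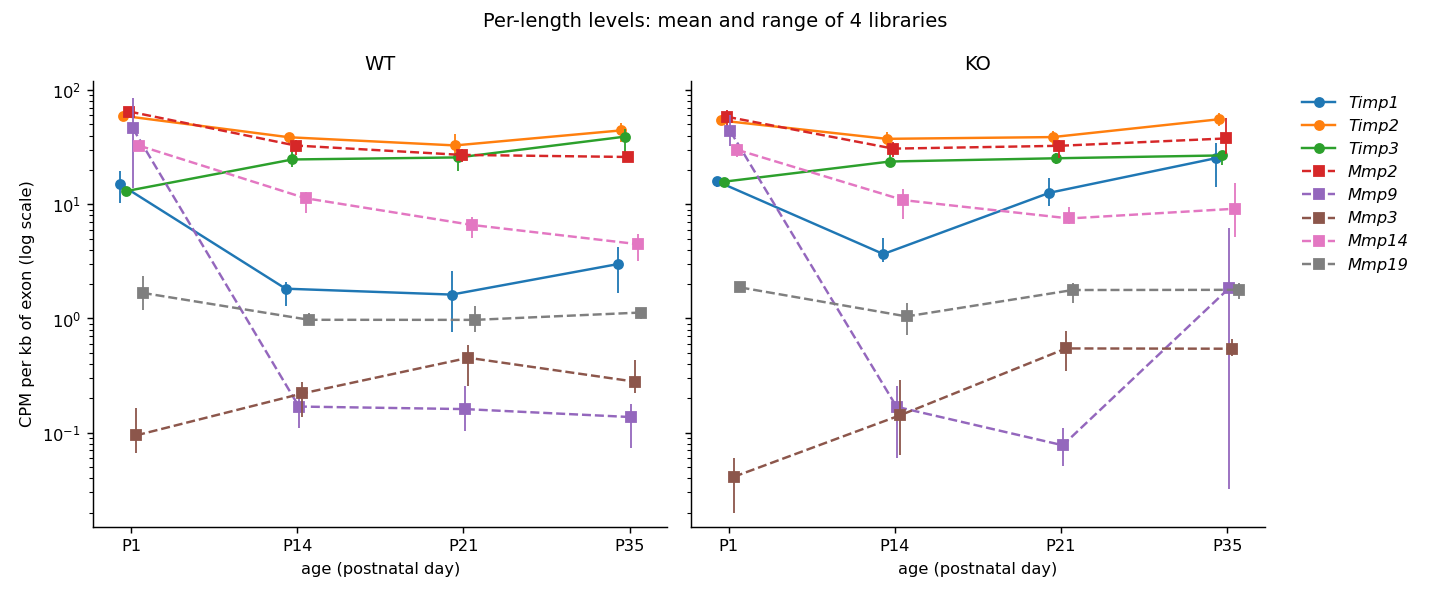
Mean level of each member in CPM per kb of exon (log scale) by age in WT and KO, with vertical lines for the range of 4 libraries, TIMPs as circles and metalloproteinases as squares. In KO, *Timp1* rises from below *Mmp14* at P14 to above it at P21 and P35, whereas in WT it stays below *Mmp14*.

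Genes whose log2 CPM followed each member most closely were ranked by Pearson's *r* over the 32 libraries, as a description, after the mean of each age had been subtracted. These libraries share age, genotype and tissue composition. The closest to *Timp1* were *Runx1* (*r*=0.98), which encodes a transcription factor, *Cpne2* (0.96) and *Hsf2bp* (0.96). *Serpinf1* (0.90), *Olfml3* (0.89) and *Col8a2* (0.88) were closest to *Timp2*, and the collagen gene *Col5a2* (0.88), *Shox2* (0.85) and *Islr* (0.85) to *Mmp2*. The closest to *Mmp14* were *Igsf10* (0.93), the osteoblast cadherin gene *Cdh11* (0.90) and *Limd2* (0.89). *Mmp19* was closest to *Adam8* (0.86), *Dnase2a* (0.85) and *Fam214b* (0.84), and *Timp3* to *Cep85l* (0.87), *Serinc3* (0.85) and *Lvrn* (0.85). For *Mmp9* they were *Sp7* (0.87), which encodes the osteoblast factor osterix, *Tnn* (0.85) and the collagenase gene *Mmp13* (0.85), and over the 32 libraries without subtraction *Sp7* (0.98), *Panx3* (0.98) and *Ibsp* (0.97). For *Mmp3*, the gene with the highest *r*, *Hsf4*, was at 0.63.

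Of 19 other metalloproteinase and TIMP genes, 11 were tested at P35. *Timp4* was called lower and *Mmp12*, the macrophage elastase, higher, at 0.117 to 0.237 CPM in WT and 0.537 to 0.983 CPM in KO (log2FC 2.13, SE 0.32, adjusted *P*=0.00094). At P1 1 of 11 was called (*Timp4*), and at P14 and P21 0 of 10. *Mmp13* was not called at P35 (adjusted *P*=0.022), with 0 to 0.449 CPM in WT and up to 73.4 CPM in KO. The median log2FC of the 11 at P35 was 0.24, against 0.04 for all genes. Over all genes 0.0442% were called at P1, and 1324 of 15595 were called higher and 1172 lower at P35.

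Of 14 genes that control proteases, 0 were called at P21. *Plaur*, the urokinase receptor, was called higher at P35 (log2FC 1.53, SE 0.18, adjusted *P*=0.00030). Among 18 ADAM and ADAMTS genes, which encode related metalloproteases, 1 was called higher at P21, and 1 higher and 3 lower at P35. *Adam8* was the one higher at both ages (log2FC 1.297 at P21 and 1.52 at P35), and *Adamts9* (-0.74), *Adamts8* (-1.73) and *Adamts12* (-0.65) were lower at P35. Median log2FC values at P35 were 0.05 for the 14 protease control genes and -0.03 for the 18 ADAM and ADAMTS genes. Over all genes 3.18% were called higher at P21 and 8.49% at P35, where 1172 of 15595 were called lower.

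Among 22 genes for matrix proteins that metalloproteinases can cut, 3 were called higher at each of P21 and P35 and 0 lower. These were the proteoglycan gene *Bgn* (log2FC 0.94 and 0.83), *Postn* (1.07 and 1.58), *Vcan* at P21 (0.72) and the elastin gene *Eln* at P35 (1.10). The median log2FC of the 22 was 0.21 at P21 and 0.07 at P35, against 0.01 and 0.04 for all genes. Over all genes 3.18% were called higher at P21 and 8.49% at P35. Of AP-1 subunits and cytokines known to induce metalloproteinases and *Timp1*, 13 were tested at either age. Of these, 1 was called higher at P21 and 9 at P35, against the same 3.18% and 8.49% of all genes, with 0 lower. The median of the 13 at P35 was 1.02. *Junb* and *Atf3*, both for transcription factors of the AP-1 family, had log2FC values of 2.72 (SE 0.12) and 2.68 (SE 0.27) at P35. *Fosl1*, the AP-1 subunit FRA-1, had no more than 1 count in any WT library and 64 to 81 counts in KO at P21 and 63 to 288 at P35. Set against 3 counts in each WT library, KO muscle held at least 20.1-fold higher mean CPM at P21 and at least 39.0-fold higher at P35. The lists were chosen with results of these data known.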

How the data were processed

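Polyadenylated RNA of skeletal muscle was sequenced in 32 libraries of 8 groups. The authors deposited 1 table of expected counts per gene (RSEM 1.2.22 after STAR 2.6.1 on GRCm38, by the processing notes), of which 4.26% were not whole. The study's methods name HTSeq for counting, whereas non-whole values are what RSEM gives. The expected counts were rounded, scaled by TMM and tested with the quasi-likelihood test of edgeR 4.0.16 (R 4.3.3, limma 3.58.1, two-sided, Benjamini-Hochberg over all genes that passed filterByExpr). KO was compared with WT at each age with the 8 libraries of that age, ages were compared within a genotype, and differences of the KO effect came from 1 fit of all 32 libraries. A call needed an adjusted *P* under 0.01 and more than a 1.5-fold difference (the threshold of the study on the log2 scale), or the adjusted *P* alone for differences of effects. The procedure was tested on simulated counts. Library totals of 49321035 to 85631408 counts set the precision, and genes with few counts are given with their counts.

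The members and gene lists were chosen with earlier results of these data known. Other genes were named by rule, as *Mtm1*, *Timp4* and other metalloproteinase genes called at any age, the 3 genes with the smallest adjusted *P* of each list among those called at P21 or P35, and the 3 with the highest *r* to each member among genes with a mean of at least 1 CPM. A result that the rule would name among the protease control genes is not reported here. *Mmp13*, *Ibsp*, *Tmem198b* and single markers were named beside results they touch. Of 54838 identifiers, 54723 had a symbol in GENCODE M21. Log2 CPM used a prior count of 2. Same-numbered KO and WT libraries deviated together at P14 (Pearson's *r* over genes of 0.41 to 0.81 for the 4 numbers), and the numbers were taken as pairs at P14 only. Their *r* ran from -0.40 to -0.01 at P1, -0.07 to 0.33 at P21 and -0.11 to 0.26 at P35. Alternatives were DESeq2 1.42.0, its size factors, library totals, no filter, at least 10 counts in every library, a replicate block, mitochondrial genes left out, other sets of libraries in the fit, an adjusted *P* under 0.05 and each library left out. Figures were drawn with matplotlib 3.10.9 in Python 3.11.15 (numpy 2.4.6, pandas 2.3.3).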

Additional observations from a re-analysis of the deposited data

Results flagged for a closer look

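In 9 of 72 groups of 4 libraries, for the 8 members and *Timp4*, 1 library stood further from the others than Dixon's critical value of 0.829 allows, which chance gives in about 1 group in 20. *Mmp9* was at 22.2 CPM in KO P35 replicate 2 and at 0.114 to 3.29 CPM in the other 3. *Mmp3* was at 0.781 CPM in WT P35 replicate 1 against 0.402 to 0.423, and at 0.298 CPM in WT P1 replicate 4 against 0.121 to 0.133. *Timp4* was at 70.8 CPM in WT P14 replicate 4 against 6.46 to 15.9, and at 60.0 CPM in KO P14 replicate 4 against 4.24 to 12.4. *Timp3* was at 241 CPM in the same KO P14 replicate 4 against 172 to 181. *Timp1* was at 4.46 CPM in KO P14 replicate 3 against 2.78 to 2.98. *Mmp14* was at 56.1 CPM in KO P21 replicate 3 against 40.1 to 42.3. *Mmp2* was at 137 CPM in KO P1 replicate 4 against 209 to 224, the only low library of the 9.

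The KO effect differed between P35 and P1, by a test added after seeing the data, for *Timp1* (2.997 on the log2 scale), *Mmp14* (1.15), *Timp3* (-0.83), *Mmp3* (2.11) and *Timp4* (-3.39, SE 0.93, adjusted *P*=0.0075). For *Mmp3* and *Timp4* the libraries of both genotypes did not overlap at either age, in opposite directions. The call of *Timp4* was kept in 4 of 16 fits that left out 1 library. Over all 16 fits its adjusted *P* ran from 0.0091 to 0.017.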

How the results depend on the processing

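Counts of members called moved by over 1.5 times, or from or to 0, under these alternatives, and under the others tried they did not. At P14, 0 calls became 1 with DESeq2 and 1 with the replicate block (*Timp1*). At P35, 2 became 6 with library totals, 4 with DESeq2, 4 with all 32 libraries in 1 fit, 7 with an adjusted *P* under 0.05 and no limit on the fold change, and 1 without KO replicates 2 and 3 (*Timp1*, a choice made after seeing the data). Calls over all genes at P35 were 1561 higher and 1436 lower with DESeq2, and 1830 and 1519 with all 32 libraries. Without KO replicates 2 and 3 they were 656 and 668. From P14 to P21, 1 in WT became 0 with the replicate block and 2 at 0.05, and 1 in KO became 2 without the filter, 3 with DESeq2 and 3 at 0.05. Over all genes the block called 89 higher and 55 lower in WT. In KO, 541 and 687 were called without the filter, and 787 and 978 with DESeq2. At 0.05, 25.6% of genes passed in WT and 27.6% in KO. From P21 to P35, 0 in WT became 1 with DESeq2 and 1 at 0.05, and 0 in KO became 1 with library totals, 2 with DESeq2 and 3 at 0.05. Here 17.7% of genes passed at 0.05 in WT and 23.9% in KO. For differences of the KO effect, 0 became 1 with library totals, 1 with DESeq2 and 1 at 0.05 for P21 against P14, 0 became 1 with DESeq2 for P35 against P21, and 4 became 7 with library totals for P35 against P1. For P21 against P14, library totals called 161 genes higher and 6 lower, and 1.42% of genes passed at 0.05. With the replicate block, *Mmp19* at P35 (adjusted *P*=0.013) and *Mmp14* from P14 to P21 in WT (0.0215) lost their calls, and *Mmp14* at P35 gained one (0.0038), although only at P14 did the numbers pair the libraries. Directions turned for *Mmp9* at P1 with the block (0.22), *Mmp9* without KO replicates 2 and 3 at P35 (-0.87) and from P21 to P35 in KO (-0.089), and *Timp3* from P1 to P14 in KO with library totals (-0.12). Leaving out 1 library gave -0.058 to 0.25 for *Timp1* at P1, -0.38 to 0.41 for *Mmp9* at P1 and -0.10 to 0.12 for *Timp3* at P21, and counts of 1 to 2 at P21, 0 to 1 in WT and 1 to 5 in KO from P14 to P21, 0 to 1 in KO from P21 to P35, 0 to 1 for P21 against P14 and 1 to 5 for P35 against P1. The cause of these moves was not tested, and the share of all genes called in the fits that left out 1 library is not given. Of 125 fold changes of the members and *Timp4*, 37 changed sign under at least 1 alternative or omission, 6 of them printed here. With 4 libraries per group, *Mmp3* (3 to 82 counts) and *Mmp9* after P1 are limited by their counts.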
